A study of Mus musculus with 20 samples.

Results

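Transcripts of 5 chemokines (Ccl3, Ccl4, Ccl5, Ccl22 and Cxcl10) and 4 ligands of the TNF family (Tnf, Lta, Ltb and Tnfsf9) were followed in mouse splenic B cells during stimulation of the B cell receptor. The members were taken by symbol from the annotated probe sets of the value table, and all 9 were found, each with 1 probe set, among 19938 genes with a symbol of their own. The cells came from C57BL/6 mice of mixed sex, 8-12 weeks old, and had been enriched by removing CD43-bearing cells on magnetic beads. Wild type cells (labelled mb-1/TAK1+/+) and TAK1-deleted cells (labelled mb-1/TAK1f/f) were compared. TAK1, encoded by Map3k7, is a kinase upstream of the IkB kinase complex and of MAP kinases, and mb-1 (Cd79a) is a B lineage gene whose locus drives the deletion. Both genotypes carry the mb-1 designation. RNA was taken without stimulation (0 h) or after 1, 3, 6 and 24 h with 10 µg/ml of anti-IgM, which cross-links the receptor, and 2 Affymetrix arrays were made per group, 20 in all. It is not stated whether the unstimulated cells spent time in culture or whether the 2 replicates of a group are different mice, so the p-values rest on a replicate spread that could be purely technical.

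Values are on the log2 scale, where a difference of 1 is a doubling. Differences are given ± standard error from a limma fit across 11968 genes with 2 arrays in each group, and calls were made where the Benjamini-Hochberg adjusted p was under 0.05. All 9 members passed the filter on dim probe sets, which asks for a value of 7.45 (the median of the table) in at least 2 arrays. Tnfsf9 reached that level in 5 of the 20 arrays, Lta in 10 and Ccl22 in 12, so these genes passed through the groups in which they were bright, and the other 6 members were above it in all 20. Folds taken against dim values can be understated, because array background remains in them. Levels of different genes are not compared, since probe sets differ in brightness. Map3k7 itself was not called between the genotypes at any time in the fit without a block, with differences of 0.06 to 0.30. Its probes were not placed relative to the deleted exons, so it gives no check of the genotype.

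Chemokines are small secreted proteins that guide the migration of leukocytes through G protein-coupled receptors. Ccl3 and Ccl5 bind CCR1, Ccl22 binds CCR4 on regulatory and helper T cells, and Cxcl10 binds CXCR3 on activated T cells and NK cells. Ligands of the TNF family act as trimers, at the cell surface or after release. Tnf signals through TNFR1 and TNFR2, lymphotoxin alpha (Lta) binds the same receptors or joins lymphotoxin beta (Ltb) in a membrane complex that engages the lymphotoxin beta receptor, and Tnfsf9 (4-1BBL) costimulates T cells through 4-1BB. Receptor signalling in B cells reaches such genes through calcium and NFAT, through MAP kinases and AP-1, and through NF-kB. Ltb, Tnf and Lta are consecutive protein-coding genes on mouse chromosome 17, where Tnfsf9 also lies, next to Cd70. Ccl3 and Ccl4 are neighbours on chromosome 11, with annotated spans that overlap, and Ccl5 is on the same chromosome. Ccl22, on chromosome 8, neighbours Cx3cl1, and the annotated span of Cxcl10 on chromosome 5 overlaps that of Art3.

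The promoter sequences of members with different time courses are set side by side here. RefSeq promoter windows, of 250 bases before to 50 after the transcription start, were at hand for 6 of the 9 members and were searched on both strands for 4 motifs. The motifs were an NF-kB site (GGG and CC with any 5 bases between them), an AP-1 site (TGANTCA), the NFAT core (GGAAAA) and an interferon-stimulated element (GAAA and again GAAA after any 2 bases). The 250 bases before the start are shown for 5 members that differ in time course, 5′ to 3′ along the gene's own strand, and capitals mark every match.
Ccl3, GRCm38.p6 chr11:83649379-83649628, minus strand: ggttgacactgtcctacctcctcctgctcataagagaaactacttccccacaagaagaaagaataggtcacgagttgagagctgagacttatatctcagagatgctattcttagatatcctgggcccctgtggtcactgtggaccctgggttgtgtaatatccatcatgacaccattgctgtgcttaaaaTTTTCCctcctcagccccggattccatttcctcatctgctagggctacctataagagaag
Cxcl10, GRCm38.p6 chr5:92348890-92349139, minus strand: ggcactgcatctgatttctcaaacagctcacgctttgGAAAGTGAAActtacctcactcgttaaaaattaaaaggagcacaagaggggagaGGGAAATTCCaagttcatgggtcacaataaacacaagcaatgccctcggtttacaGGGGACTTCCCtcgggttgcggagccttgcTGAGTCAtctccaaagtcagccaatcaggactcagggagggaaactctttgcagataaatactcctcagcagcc
Ccl22, GRCm38.p6 chr8:94745434-94745683, plus strand: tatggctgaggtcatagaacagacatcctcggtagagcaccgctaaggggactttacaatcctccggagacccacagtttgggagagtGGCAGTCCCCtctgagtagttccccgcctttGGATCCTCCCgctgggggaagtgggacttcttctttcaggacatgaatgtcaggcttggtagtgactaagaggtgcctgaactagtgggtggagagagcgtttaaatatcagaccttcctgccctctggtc
Tnf, GRCm38.p6 chr17:35202008-35202257, minus strand: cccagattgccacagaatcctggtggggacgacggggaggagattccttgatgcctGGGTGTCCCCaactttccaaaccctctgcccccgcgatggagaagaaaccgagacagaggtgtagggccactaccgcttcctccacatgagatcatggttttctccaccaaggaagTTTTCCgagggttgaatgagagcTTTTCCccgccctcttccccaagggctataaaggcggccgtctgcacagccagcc
Ltb, GRCm38.p6 chr17:35194257-35194506, plus strand: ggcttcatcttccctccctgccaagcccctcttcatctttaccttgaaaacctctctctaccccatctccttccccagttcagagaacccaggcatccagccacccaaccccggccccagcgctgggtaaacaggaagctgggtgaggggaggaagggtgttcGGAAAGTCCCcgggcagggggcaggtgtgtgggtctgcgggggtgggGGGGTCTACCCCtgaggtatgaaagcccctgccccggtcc
The Ccl3 window held a single match, an NFAT core at -60, and 0 matches to the NF-kB letters. Cxcl10 held matches to 3 of the 4 motifs: an interferon-stimulated element at -213, NF-kB at -159 and at -104 and -103 (overlapping), and AP-1 at -74. Tnf had NFAT cores at -78 and -55 and NF-kB matches at -194 and, beyond the printed bases, at 30. Ccl22 had NF-kB matches at -162 and -131, both on the opposite strand, and Ltb had 4, at -87 and overlapping at -40, -39 and -38. Lta, not printed, had 2 overlapping NF-kB matches at -76 and -75. Among all 32851 mouse promoter windows of 300 bases, 50.8% held the NF-kB letters, 23.4% the NFAT core, 7.81% the AP-1 site and 3.44% the interferon element. A match is a description of the letters, and factor binding was not measured.

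Ccl3 and Ccl4, encoding the macrophage inflammatory proteins MIP-1α and MIP-1β, rose within 1 h in both genotypes. Ccl3 read 10.02 and 9.53 in the wild type arrays at 0 h and 13.63 and 13.43 at 1 h. The 1 h arrays stood clear of the 0 h arrays, with a rise of 3.76 ± 0.21, or 13.5-fold (adjusted p = 2.53e-09). Later wild type values were 13.22 and 12.87 at 3 h, 12.74 and 12.63 at 6 h, then 12.97 and 13.02 at 24 h, so Ccl3 remained 2.91 to 3.27 above 0 h. In TAK1-deleted cells it read 9.39 and 8.80 at 0 h, 13.64 and 13.56 at 1 h, 13.10 and 12.60 at 3 h, 12.15 and 11.78 at 6 h, then 12.54 and 12.60 at 24 h. The rise at 1 h was 4.51 ± 0.21 (22.8-fold, adjusted p = 2.93e-10). Ccl3 then fell by 0.75 ± 0.21 from 1 to 3 h (adjusted p = 0.0105) and by 0.89 ± 0.21 from 3 to 6 h (adjusted p = 0.018). The first fall lost its call without TAK1-deleted 1 h replicate 1 or 3 h replicate 2 (-0.72 and -0.50, adjusted p = 0.0592 and 0.134; 6.2e-05 to 0.134 over the alternatives), the second without 3 h replicate 1 or 6 h replicate 2 (-0.63 and -0.70, adjusted p = 0.147 and 0.167; 5.85e-05 to 0.167). In wild type cells the same steps, -0.48 and -0.36, were not called in the fit without a block and were called with the replicate block (adjusted p = 0.00345 and 0.0431). Both were also called with centred arrays (adjusted p = 0.0146 and 0.0444), and the first after renewed quantile normalization (adjusted p = 0.0395). The genotypes overlapped at 1 h, with a difference of 0.07 (95% interval -0.37 to 0.51).

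Ccl4 began near the filter level, at 7.66 and 7.65 in wild type and 7.56 and 7.64 in TAK1-deleted cells. It reached 11.52 and 11.25 in wild type and 11.82 and 11.68 in TAK1-deleted cells at 1 h, rises of 3.73 ± 0.16 (adjusted p = 1.84e-10) and 4.15 ± 0.16 (adjusted p = 5.86e-11). It then fell in each step to 6 h in both genotypes. In wild type cells it read 10.69 and 10.52 at 3 h, then 9.93 and 9.63 at 6 h, falls of 0.78 ± 0.16 and 0.83 ± 0.16. The second of these steps lost its call without the wild type 3 h replicate 1 or 6 h replicate 2 (-0.74 and -0.68, adjusted p = 0.0564 and 0.088, with adjusted p from 1.86e-05 to 0.088 over the alternatives). In TAK1-deleted cells it read 10.78 and 10.53 at 3 h, then 9.47 and 8.99 at 6 h, and fell by 1.10 and 1.43. Between 6 and 24 h wild type values stayed within 0.09 of each other on average (9.90 and 9.83 in the later arrays), while the TAK1-deleted values climbed to 10.72 and 10.55, a rise of 1.40 ± 0.16 (adjusted p = 1.69e-05). All 4 changes from 0 h were called in each genotype for Ccl3 and for Ccl4, the smallest being 1.63 ± 0.16 for Ccl4 at 6 h in TAK1-deleted cells.

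**Figure D1:**
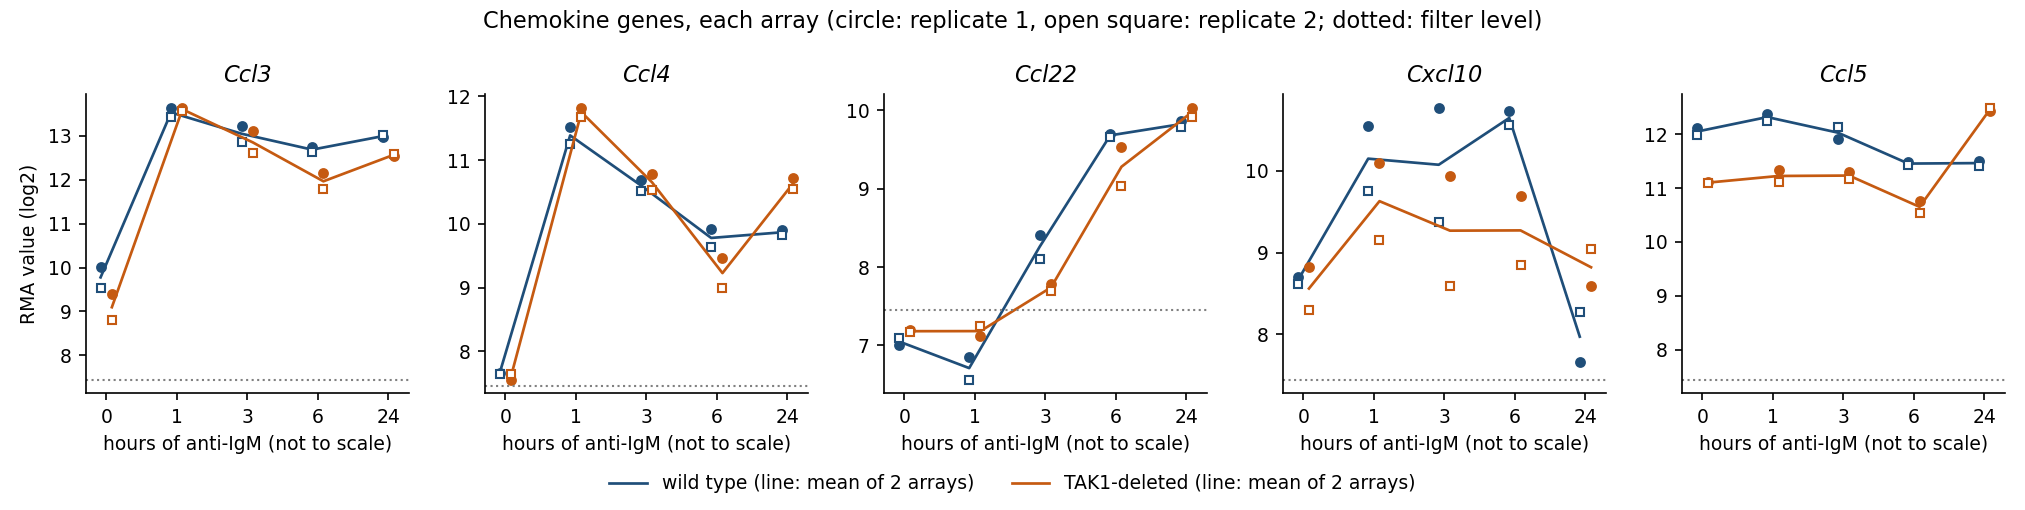
RMA values (log2) of the 5 chemokine genes in every array against hours of anti-IgM (time axis not to scale), with lines through the means of the 2 arrays and a dotted line at the filter level of 7.45. Ccl3 and Ccl4 peak at 1 h, Ccl22 climbs from 3 h, Cxcl10 is high from 1 to 6 h with replicate 1 and 2 far apart at 1 and 3 h, and the order of the genotypes for Ccl5 is inverted at 24 h.

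Ccl22, encoding the macrophage-derived chemokine MDC, was first called up at 3 h in both genotypes. Wild type values were 7.00 and 7.10 at 0 h and 6.85 and 6.56 at 1 h, then 8.41 and 8.11 at 3 h, 9.70 and 9.66 at 6 h, then 9.87 and 9.78 at 24 h. The arrays at 0 and 1 h were all under the filter level, and those from 3 h on were all above it. The gain from 0 h was 1.21 ± 0.16 at 3 h, 2.63 ± 0.16 at 6 h and 2.77 ± 0.16 at 24 h (adjusted p = 1.74e-09). The 1 h decrease of 0.34 was called only with the replicate block (adjusted p = 0.0369; 0.13 without it). TAK1-deleted values were 7.19 and 7.17 at 0 h, 7.12 and 7.25 at 1 h, 7.79 and 7.69 at 3 h, 9.53 and 9.03 at 6 h, then 10.04 and 9.92 at 24 h. The 3 h gain there, 0.56 ± 0.16, lost its call when replicate 1 of that group was left out (0.51, adjusted p = 0.0569; 0.000916 to 0.0569 over the alternatives), and the gain at 24 h was 2.80 ± 0.16 (adjusted p = 3.38e-09). At 3 and 6 h both TAK1-deleted arrays read below both wild type arrays, by 0.52 ± 0.16 and 0.40 ± 0.16. Neither gap was called in the fit without a block (adjusted p = 0.117 and 0.268), and both were with it (adjusted p = 0.0128 and 0.0468). The 3 h gap was also called after renewed quantile normalization (adjusted p = 0.0468). At 24 h the difference was 0.15 (95% interval -0.18 to 0.49).

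Cxcl10, an interferon-inducible chemokine, was the member with the widest spread between replicates. Its wild type values were 8.70 and 8.61 at 0 h, 10.55 and 9.75 at 1 h, 10.77 and 9.38 at 3 h, 10.73 and 10.56 at 6 h, then 7.67 and 8.28 at 24 h. Every wild type array from 1 to 6 h exceeded both 0 h arrays, and both 24 h arrays were below them. The rise was 1.49 ± 0.48 at 1 h (adjusted p = 0.033), 1.42 ± 0.48 at 3 h (adjusted p = 0.0251), reaching 1.99 ± 0.48 at 6 h (adjusted p = 0.00312). Without wild type 0 h replicate 1, 0 h replicate 2 or 1 h replicate 1 the 1 h call was lost, with estimates of 1.54, 1.45 and 1.09 and adjusted p of 0.112, 0.105 and 0.183. It was also lost with array weights (adjusted p = 0.0868; 0.00167 to 0.183 over the alternatives). The 3 h call was lost without wild type 0 h replicate 1, 0 h replicate 2 or 3 h replicate 1 (1.46, 1.37 and 0.72, adjusted p = 0.076, 0.0895 and 0.314; 0.00154 to 0.314 over the alternatives). Between 6 and 24 h Cxcl10 fell by 2.67 ± 0.48 (adjusted p = 0.000781), more than any other member changed between successive times after 1 h. In TAK1-deleted cells it read 8.82 and 8.30 at 0 h, 10.10 and 9.16 at 1 h, 9.94 and 8.60 at 3 h, 9.70 and 8.85 at 6 h, then 8.60 and 9.05 at 24 h. None of the 4 changes from 0 h was called, the largest being 1.07 ± 0.48 at 1 h (adjusted p = 0.147), which was called with the replicate block (adjusted p = 0.0205; 0.0205 to 0.531 over the alternatives). The change from 0 h to 6 h differed between the genotypes by -1.28, which was not called with or without the block (adjusted p = 0.134 with it). At 6 h the genotypes did not overlap, and TAK1-deleted cells read 1.37 ± 0.48 below wild type (adjusted p = 0.196). It was called with the replicate block (adjusted p = 0.0126) and with array weights (adjusted p = 0.024; up to 0.705 over the alternatives).

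Ccl5 (RANTES), a chemokine that T and NK cells produce in quantity, was high before stimulation and was the only member called between the genotypes at every time. Wild type cells gave 12.12 and 11.98 at 0 h, 12.38 and 12.25 at 1 h, 11.92 and 12.14 at 3 h, 11.48 and 11.43 at 6 h, then 11.51 and 11.41 at 24 h. TAK1-deleted cells gave 11.11 and 11.09, 11.33 and 11.11, 11.30 and 11.16, and 10.76 and 10.54 at 0, 1, 3 and 6 h, and 12.43 and 12.49 at 24 h. Up to 6 h every TAK1-deleted array was below every wild type array of its time, and at 24 h both were above. TAK1-deleted cells were lower by 0.95 ± 0.12 at 0 h (adjusted p = 0.000163), by 1.09 ± 0.12 at 1 h (adjusted p = 2.62e-05), by 0.80 ± 0.12 at 3 h (adjusted p = 0.001) and by 0.80 ± 0.12 at 6 h (adjusted p = 0.00107). At 24 h they were higher by 1.00 ± 0.12 (adjusted p = 3.93e-05). Each of these 5 calls held in all 12 alternatives computed for it. Over the course Ccl5 fell in wild type cells by 0.59 at 6 h and 0.58 at 24 h. It fell in TAK1-deleted cells by 0.45 at 6 h, a call lost without TAK1-deleted 6 h replicate 2 (-0.34, adjusted p = 0.0898; 0.000406 to 0.0898 over the alternatives), and it then rose by 1.81 ± 0.12 between 6 and 24 h (adjusted p = 3.23e-08). In wild type cells the increase of 0.27 at 1 h was called with the replicate block alone or with centred arrays (adjusted p = 0.0241 and 0.0189; up to 0.333 over the alternatives).

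Tnf, the name-giving ligand of its family, had a brief rise at 1 h and a second increase at 24 h. Wild type arrays gave 9.55 and 9.18 at 0 h, 10.80 and 10.49 at 1 h, 9.97 and 9.79 at 3 h, 9.60 and 9.66 at 6 h, then 10.12 and 10.00 at 24 h. The rise at 1 h was 1.28 ± 0.19 (adjusted p = 0.000121), and the groups did not overlap. By 3 h it had fallen back by 0.76 ± 0.19 from 1 h (adjusted p = 0.00541), a call lost without wild type 1 h replicate 1 or 3 h replicate 2 (-0.61 and -0.67, adjusted p = 0.0638 and 0.0502; 1.58e-05 to 0.0638 over the alternatives). The remaining 0.52 above 0 h (adjusted p = 0.0396) was lost without the filter on dim probe sets (adjusted p = 0.0577). It was also lost without wild type 3 h replicate 1, 0 h replicate 2 or 3 h replicate 2 (0.43, 0.33 and 0.60, adjusted p = 0.191, 0.272 and 0.0636; 0.000748 to 0.272 over the alternatives). At 24 h Tnf was 0.70 ± 0.19 above 0 h (adjusted p = 0.00733), which was lost without wild type 24 h replicate 1 or 0 h replicate 2 (0.64 and 0.51, adjusted p = 0.0537 and 0.0901; 3.16e-05 to 0.0901 over the alternatives). The wild type step from 6 to 24 h, 0.43, was not called in the fit without a block. It was called with the replicate block, after renewed quantile normalization and with centred arrays (adjusted p = 0.00583, 0.00621 and 0.0089). TAK1-deleted arrays gave 9.54 and 9.19 at 0 h, 10.47 and 10.39 at 1 h, 9.80 and 9.31 at 3 h, 9.26 and 8.85 at 6 h, then 10.18 and 10.00 at 24 h. There the rise at 1 h was 1.06 ± 0.19 (adjusted p = 0.000789), and the gain from 6 to 24 h was 1.04 ± 0.19 (adjusted p = 0.00115). The 24 h value was 0.72 ± 0.19 above 0 h (adjusted p = 0.0102), lost without TAK1-deleted 24 h replicate 1 or 0 h replicate 2 (0.63 and 0.55, adjusted p = 0.0909 and 0.11; 4.18e-05 to 0.11 over the alternatives). The TAK1-deleted 6 h value lay 0.32 under 0 h and was called with the replicate block (-0.32, adjusted p = 0.0284; 0.228 without it), as it was after renewed quantile normalization and with centred arrays (adjusted p = 0.0254 and 0.0391). The difference between the genotypes was -0.21 at 1 h (95% interval -0.62 to 0.20) and -0.58 ± 0.19 at 6 h (adjusted p = 0.166). The 6 h difference was called with the replicate block (adjusted p = 0.00238). It was also called after renewed quantile normalization, with centred arrays and with array weights (adjusted p = 0.0125, 0.0124 and 0.0158), but in no other alternative.

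Tnfsf9 was dim at most times and rose at 1 h in both genotypes. Wild type cells gave 6.96 and 6.53 at 0 h, 8.76 and 7.93 at 1 h, 7.03 and 6.49 at 3 h, 6.75 and 6.53 at 6 h, then 8.01 and 7.79 at 24 h, so only the 1 h and 24 h arrays exceeded the filter level. The rises were 1.60 ± 0.29 at 1 h (adjusted p = 0.000659), followed by 1.15 ± 0.29 at 24 h (adjusted p = 0.004). TAK1-deleted cells gave 6.29 and 6.45 at 0 h, 7.70 and 7.00 at 1 h, 6.93 and 6.26 at 3 h, 6.61 and 6.32 at 6 h, then 6.91 and 6.79 at 24 h, with a single array above the filter level. Their rise of 0.98 ± 0.29 at 1 h (adjusted p = 0.0253) lost its call without TAK1-deleted 0 h replicate 1, 0 h replicate 2 or 1 h replicate 1 (0.90, 1.05 and 0.63, adjusted p = 0.137, 0.0651 and 0.237; 0.000172 to 0.237 over the alternatives). At 24 h their gain of 0.48 ± 0.29 was called with the replicate block alone (adjusted p = 0.0315; 0.257 without it). TAK1-deleted arrays lay below wild type arrays at 1 h, by 1.00 ± 0.29 (adjusted p = 0.068), and at 24 h, by 1.05 ± 0.29 (adjusted p = 0.0261). The 1 h difference was called with the replicate block (adjusted p = 0.000509), with centred arrays (adjusted p = 0.0161), and without TAK1-deleted 1 h replicate 1 or wild type 1 h replicate 2 (-1.35 and -1.41, adjusted p = 0.0434 and 0.0198; up to 0.411 over the alternatives). The 24 h call was lost when any of the 4 arrays was left out. Without wild type 24 h replicate 1 or 2 the difference was -0.94 and -1.16 (adjusted p = 0.181 and 0.0601), and without TAK1-deleted 24 h replicate 1 or 2 it was -1.11 and -0.99 (adjusted p = 0.0978 and 0.15; 0.00014 to 0.181 over the alternatives).

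The lymphotoxin genes went the other way and were lower at 3, 6 and 24 h than at 0 h in both genotypes. Ltb read 12.14 and 12.08 in wild type cells at 0 h, 11.05 and 11.24 at 1 h, 9.93 and 10.15 at 3 h, 9.51 and 9.55 at 6 h, then 8.48 and 8.46 at 24 h. No array overlapped with those of an earlier time. The fall from 0 h was 0.97 ± 0.12 at 1 h (adjusted p = 1.89e-05) and reached 3.64 ± 0.12 at 24 h, or 12.5-fold (adjusted p = 1.77e-11). In TAK1-deleted cells it read 12.11 and 12.09 at 0 h, 10.93 and 11.13 at 1 h, 10.05 and 9.84 at 3 h, 9.90 and 9.79 at 6 h, then 9.27 and 9.25 at 24 h. Those values followed wild type within 0.11 on average to 3 h, and the total fall was 2.84 ± 0.12, or 7.18-fold, at 24 h. At that time TAK1-deleted cells were 0.79 ± 0.12 higher than wild type (adjusted p = 0.000483), a call that held in all 12 alternatives. At 6 h both TAK1-deleted arrays were also above both wild type arrays, by 0.31 ± 0.12, which was called with array weights alone (adjusted p = 0.0417; 0.265 in the fit without them, up to 0.812 over the alternatives).

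Lta read 9.29 and 8.65 in wild type cells at 0 h, 8.73 and 8.24 at 1 h, 7.48 and 7.45 at 3 h, 7.43 and 7.27 at 6 h, then 7.11 and 7.20 at 24 h. At 1 h the wild type groups overlapped, and the difference of -0.49 ± 0.20 was not called (adjusted p = 0.087). It was called with the replicate block (adjusted p = 0.014), after renewed quantile normalization (adjusted p = 0.0359), and without wild type 1 h replicate 1 or 0 h replicate 2 (-0.73 and -0.81, adjusted p = 0.0292 and 0.0109; up to 0.695 over the alternatives). It then fell by 1.51 ± 0.20 at 3 h and by 1.82 ± 0.20 at 24 h relative to 0 h (adjusted p = 1.92e-06 at 24 h). TAK1-deleted cells gave 9.35 and 8.96 at 0 h, 8.36 and 8.07 at 1 h, 7.36 and 7.30 at 3 h, 7.23 and 7.21 at 6 h, then 6.75 and 6.84 at 24 h. Their fall was called at every time, from 0.94 ± 0.20 at 1 h (adjusted p = 0.00265) to 2.36 ± 0.20 at 24 h (adjusted p = 2.47e-07). From 6 h on Lta was below the filter level in all arrays, so the true size of its fall is uncertain. The genotypes did not differ by a call at any time, and the largest gap was -0.36 at 24 h (95% interval -0.78 to 0.06).

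**Figure D2:**
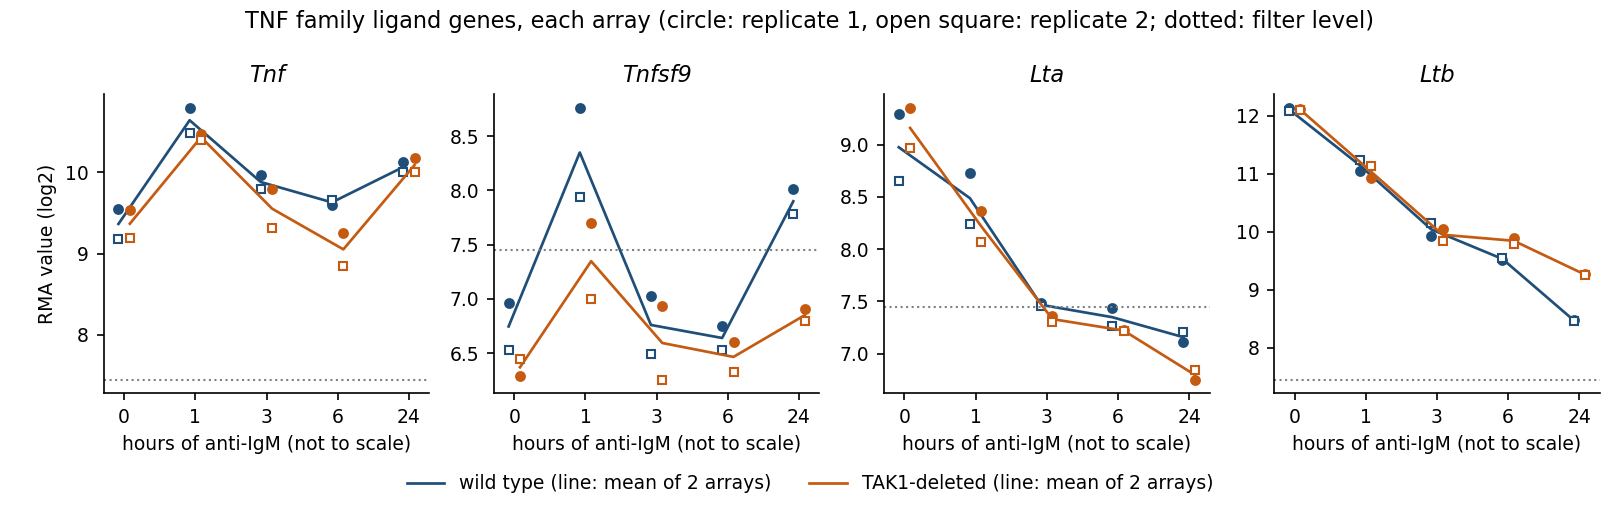
RMA values (log2) of the 4 TNF family ligand genes in every array against hours of anti-IgM (time axis not to scale), with lines through the means of the 2 arrays and a dotted line at the filter level of 7.45. Tnf and Tnfsf9 have a peak at 1 h and higher values again at 24 h, Lta and Ltb decline from 0 h on, and Ltb ends at 8.48 and 8.46 in wild type but 9.27 and 9.25 in TAK1-deleted cells.

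In counts, 6 of the 9 members were called at 1 h in wild type cells, where 24.5% of all tested genes were, 5 up (10.6% of all genes) and 1 down (13.9%). The counts were 7 at 3 h (44.1% of all genes), 7 at 6 h (43.2%) and 8 at 24 h (43.8%). In TAK1-deleted cells 6 members were called at 1 h (19.3% of all genes), 5 at 3 h (41.7%), 6 at 6 h (35.8%) and 7 at 24 h (27.6%). With the replicate block 9 members were called at 1 h in wild type cells, where 43.2% of all genes were. The median change of the 5 chemokines at 1 h was 1.49 in wild type cells, against -0.05 over all tested genes, and that of the 4 TNF family ligands was 0.39, with members on both sides of 0. All these comparisons share the 0 h arrays of their genotype. The members and the gene lists below were chosen with earlier results of these data known. Their counts and medians beside those of all genes are therefore a description and not a test. From 1 to 3 h 6 members were called in each genotype (36.1% of all genes in wild type and 32.6% in TAK1-deleted cells). From 3 to 6 h 4 were called in each (8.71% and 6.08%), and Ccl22 was the one that rose. From 6 to 24 h 3 were called in wild type (19.4%) and 5 in TAK1-deleted cells (18.9%), with Ltb falling in both.

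Between the genotypes a single member, Ccl5, was called at 0 h (2.32% of all genes called), 1 h (4.28%), 3 h (2.71%) and 6 h (2.53%). At 24 h there were 4 (12.2% of all genes): Ccl4, Ccl5 and Ltb were higher (7.04% of all genes) and Tnfsf9 was lower (5.18%) in TAK1-deleted cells. Tnfsf9 passed the filter mainly through the wild type arrays of 1 and 24 h, and both TAK1-deleted 24 h arrays were under that level. Its call was lost when any of the 4 arrays was left out. The Ccl4 difference at 24 h, 0.77 ± 0.16 (adjusted p = 0.00543), lost its call when TAK1-deleted replicate 1 of that time was left out (0.68, adjusted p = 0.065; 3.2e-05 to 0.065 over the alternatives). Same-numbered arrays deviated together in this series, and the replicate block changed several counts. With it 2 members were called at 0 h (6.99% of all genes), 4 at 1 h (12.9%), 2 at 3 h (8.31%), 6 at 6 h (12.2%) and 5 at 24 h (28.8%). At 1 h it added Ccl4 and Ccl22, higher in TAK1-deleted cells by 0.36 and 0.47 (adjusted p = 0.0346 and 0.018), and Tnfsf9. At 6 h it added Ccl3, Ccl4, Ccl22, Cxcl10 and Tnf, all lower in TAK1-deleted cells, and together with Ccl5 these were 6 of the 9 members (7.85% of all genes were lower by this fit). Of the added 5, Ccl3 was lower by 0.72 ± 0.21 (adjusted p = 0.0901, and 0.000797 with the block) and Ccl4 by 0.55 ± 0.16 (adjusted p = 0.105, and 0.00237 with the block). After renewed quantile normalization, with centred arrays and with array weights Ccl3 was also called (adjusted p = 0.0216, 0.0122 and 0.00539), but in no other alternative. In the same settings Ccl4 was called too (adjusted p = 0.0168, 0.0306 and 0.0173). Without TAK1-deleted 6 h replicate 1 the Ccl4 gap was called as well (-0.79, adjusted p = 0.0476; up to 0.737 over the alternatives). Ccl3 was also lower with the block at 0 h (-0.68, adjusted p = 0.00159; 0.126 without it) and at 24 h (-0.42, adjusted p = 0.0173; 0.229 without it). The 0 h gap was called too after renewed quantile normalization, with centred arrays (adjusted p = 0.0105 and 0.0151) and without TAK1-deleted 0 h replicate 1 (-0.97, adjusted p = 0.0473; up to 0.755 over the alternatives).

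**Figure D3:**
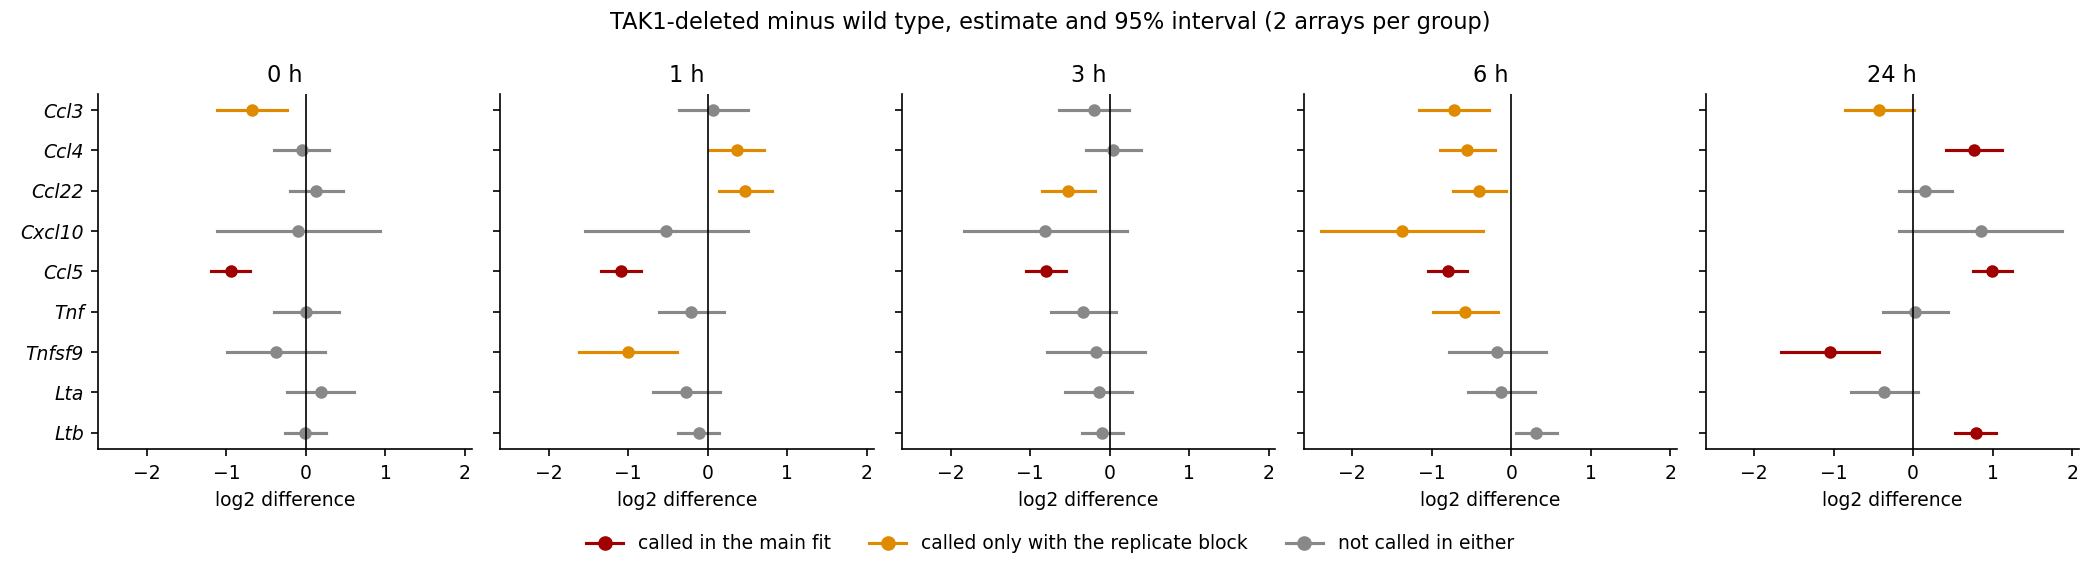
Difference between TAK1-deleted and wild type cells (log2, points) with its 95% interval (lines) for each member at each time, 2 arrays per group. Red marks differences called in the fit without a block, orange those called in the fit with the replicate block and not in the former. Ccl5 is lower at 0 to 6 h and higher at 24 h. At 6 h the intervals of Ccl3, Ccl4, Ccl22, Cxcl10 and Tnf lie below 0 and that of Ltb above 0. The intervals are not adjusted for the number of genes, and these differences at 6 h were not called in the fit without a block.

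The response, meaning the change from 0 h, was then compared between the genotypes. By the limma fit 0 members differed in response at 1, 3 and 6 h, where 0.109%, 0.0585% and 0.284% of all genes did. An unadjusted p below 0.05 was reached by Ccl3 at 1 h (0.75) and Ccl22 at 3 h (-0.65). At 6 h it was reached by Ccl4, Ccl22 and Tnf (-0.50, -0.53 and -0.58). The share of all genes at that threshold was not computed, and the percentages above are for adjusted p. With the replicate block the Tnf difference at 6 h was called (adjusted p = 0.0398; 0.577 without it, up to 0.992 over the alternatives), among 6.45% of all genes. At 24 h 3 members differed in response (8.66% of all genes), each upward in TAK1-deleted relative to wild type cells (4.62% of all genes). These were Ccl5 (1.94 ± 0.16, adjusted p = 9.3e-06), which fell in wild type and rose in TAK1-deleted cells, Ltb (0.79 ± 0.17, adjusted p = 0.00758), which fell less, and Ccl4 (0.82 ± 0.23, adjusted p = 0.0361). The Ccl4 call was lost without the filter on dim probe sets, with array weights (adjusted p = 0.0532 and 0.084), and on leaving out any of the 8 arrays. Without replicate 1 the estimates were 0.82 (wild type 0 h), 0.86 (wild type 24 h), 0.78 (TAK1-deleted 0 h) and 0.74 (TAK1-deleted 24 h), and without replicate 2, in the same order, 0.82, 0.78, 0.86 and 0.90. Their adjusted p ran from 0.0638 to 0.137, and over all alternatives from 0.000688 to 0.137.

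Transcripts of other cell types were present and moved with the groups, although T, NK and most myeloid cells carry CD43 and the bead depletion would remove such cells. The array mean of 11 pan-B cell markers was 13.01 in wild type and 12.97 in TAK1-deleted cells at 0 h, with 0 called between them, and all 11 were above the filter level in every group. NK cell markers averaged 9.18 in wild type and 8.12 in TAK1-deleted cells at 0 h (8 of 11 lower), and were lower in TAK1-deleted cells for 9 of 11 at 1 h, 9 at 3 h and 7 at 6 h. Of all tested genes 2.32%, 4.28%, 2.71% and 2.53% were called between the genotypes at 0, 1, 3 and 6 h. At 24 h the NK cell means were 6.63 and 6.80, with 9 of the 11 markers, Ncr1 and Klrb1c among them, under the filter level in both genotypes. T cell markers averaged 10.2 and 9.45 at 0 h (4 of 11 lower) and 8.28 and 8.90 at 24 h (4 of 11 higher, against 7.04% of all genes). The NK and T cell means were thus lower in TAK1-deleted cells at the times at which Ccl5 was. The T cell mean was above wild type at 24 h, as Ccl5 was. Within TAK1-deleted cells, however, Ccl5 rose by 1.81 from 6 to 24 h. The T cell mean there was 8.93 and 8.90 at these times, and the NK cell mean 6.95 and 6.80. In wild type cells Ccl5 fell by 0.58 from 0 to 24 h. The T cell mean there went from 10.2 to 8.28 and the NK cell mean from 9.18 to 6.63. In these bulk samples fewer cells of a type and less RNA per cell cannot be told apart, and the part of NK and T cells in the Ccl5 values was not tested.

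Myeloid markers differed between the genotypes at 24 h, when Ccl4, Ccl5 and Ltb were higher in TAK1-deleted cells. Monocyte or macrophage markers fell from 10.3 in both genotypes at 0 h to 7.61 and 7.60 at 6 h. Between the genotypes 0 of these 15 markers were called from 0 to 6 h (2.32% to 4.28% of all genes). At 24 h they averaged 8.06 in wild type and 9.31 in TAK1-deleted cells (12 of 15 higher, against 7.04% of all genes). Neutrophil markers averaged 7.33 and 9.07 at that time (12 of 13 higher), and dendritic cell markers 8.02 and 8.66 (4 of 11 tested higher). Log2 of the summed monocyte or macrophage signal ranged from 12.7 to 12.8 in wild type and from 14.4 to 14.5 in TAK1-deleted arrays at 24 h. Erythroid markers were higher in TAK1-deleted cells at 0 h (means of 8.15 and 10.1, 9 of 9 higher, where 2.32% of all genes were called). At 1 h the monocyte or macrophage mean was 9.04 in wild type and 9.24 in TAK1-deleted cells. The part of these cells in the 1 h rises of Ccl3 and Ccl4 and in the 24 h differences was not tested.

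**Figure D4:**
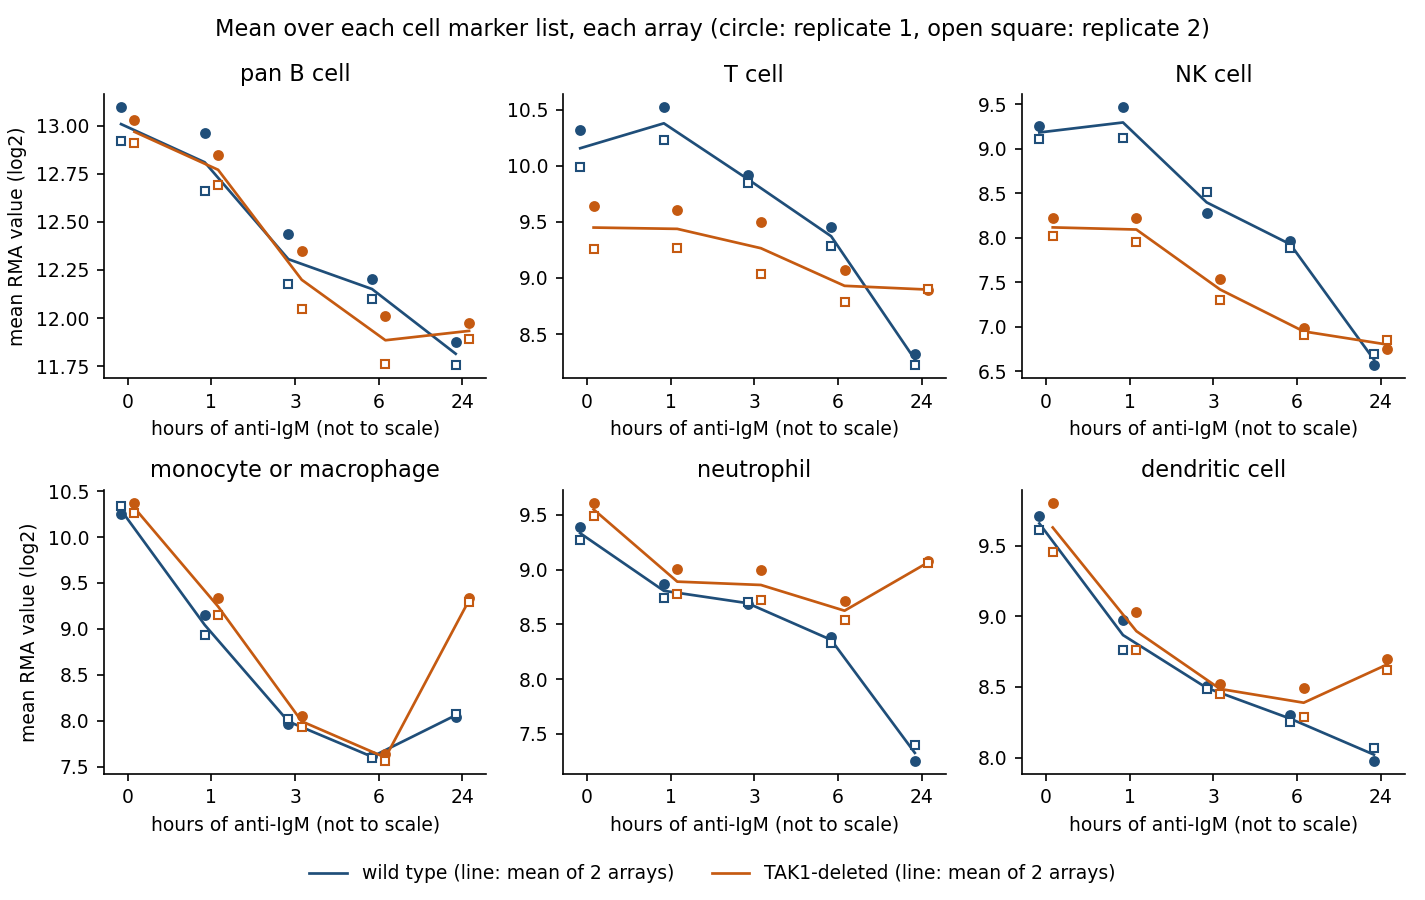
Mean RMA value (log2) over each list of cell markers in every array against hours of anti-IgM (time axis not to scale), with lines through the means of the 2 arrays; the vertical axes differ in range. NK cell means are lower in TAK1-deleted cells from 0 to 6 h (9.18 and 8.12 at 0 h), and monocyte or macrophage and neutrophil means are higher in them at 24 h (8.06 and 9.31, 7.33 and 9.07).

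Several genes of NF-kB feedback were lower in TAK1-deleted cells at 1 h. Of 16 tested NF-kB subunits and inhibitors 11 rose and 0 fell in wild type cells at 1 h, led by Nfkbid (2.72 ± 0.10), Tnfaip3 (2.68 ± 0.16) and Nfkbiz (2.67 ± 0.20), which encode the inhibitory proteins IkBNS, A20 and IkBζ. The list's median was 0.84, against -0.05 over all genes, of which 10.6% rose. In TAK1-deleted cells 4 of the 16 were lower than in wild type at 1 h (Nfkbia, Nfkbiz, Tnfaip3 and Traf1) and 0 higher (4.28% of all genes called), with Tnfaip3 lower by 1.22 ± 0.16 (adjusted p = 0.000149) and Nfkbiz by 0.88 ± 0.20 (adjusted p = 0.0178). The count was 3 at 3 h and 2 at 6 h, all lower (2.71% and 2.53% of all genes called), and at 24 h 3 were higher and 1 lower (12.2% of all genes called). Of 9 tested genes associated with NFAT and calcineurin 6 rose at 1 h in wild type cells, led by Nr4a3 (5.14 ± 0.16), Egr2 (3.88 ± 0.22) and Nr4a1 (3.32 ± 0.15). Between the genotypes 1 of these, the interleukin gene Il4, was lower in TAK1-deleted cells at 1 h (-1.44 ± 0.19, adjusted p = 0.000229).

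Interferon-induced genes were higher at 6 h in wild type cells, when Cxcl10 was too. At 6 h 15 of 18 tested rose and 1 fell in wild type cells (median 1.45, against 0.05 over all genes, of which 43.2% were called). In TAK1-deleted cells 8 of the 18 were lower than in wild type at that time and 0 higher (2.53% of all genes called), among them the antiviral genes Mx1 (-1.05 ± 0.19, adjusted p = 0.0057), Rsad2 (-0.93 ± 0.20, adjusted p = 0.0209) and Ifih1 (-0.84 ± 0.18, adjusted p = 0.0192). In response 0 of the 18 differed at 6 h by the limma fit, a comparison in which 0.284% of all genes were called. This count does not show that the responses were equal.

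Of 29 other chemokine genes 16 passed the filter on dim probe sets. At 1 h in wild type cells 3 of these rose, the neutrophil attractant gene Cxcl2 (2.13 ± 0.22), Cxcl16 (1.41 ± 0.25) and Xcl1 (1.41), and 3 fell (Ccl6, Ccl9 and Cxcl9), where 24.5% of all genes were called. At 24 h 5 were higher in TAK1-deleted than in wild type cells and 2 lower (12.2% of all genes called), with the platelet gene Ppbp at 2.11 ± 0.27 (adjusted p = 0.000101), Xcl1 at -1.66 and Cxcl16 at 1.38 ± 0.25. Ccl9 and Ccl6 neighbour members on chromosome 11, Ccl9 next to Ccl5 and Ccl6 next to Ccl3. Both were lower in TAK1-deleted cells at 0 h (2.32% of all genes called), by 0.78 ± 0.13 and 1.12 ± 0.15. Both also differed in response at 24 h (1.74 ± 0.18 and 1.51 ± 0.22), where 8.66% of all genes did. They were named after their values were seen, and values of the members' other neighbours outside the list are not given. Of the other TNF family ligands 5 of 14 were tested. Of these 1 rose at 1 h in wild type cells, the death ligand gene Fasl (0.86 ± 0.18), where 10.6% of all genes rose. Fasl and Tnfsf14 (LIGHT) were lower in TAK1-deleted cells at 1 h, by 0.79 ± 0.18 and 0.71 (4.28% of all genes called). NK cell markers averaged 9.30 in wild type and 8.09 in TAK1-deleted cells at that time. The part of NK cells in these values was not tested.

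Of 14 tested chemokine receptors 11 fell and 1, Ccr6, rose in wild type cells at 24 h (43.8% of all genes were called in that comparison), and between the genotypes 3 were higher in TAK1-deleted cells at that time (Ccr9, Cxcr4 and Cxcr5) and 0 lower (12.2% of all genes called). In response 8 of the 14 differed at 24 h, all upward (4.62% of all genes), led by Cxcr4 (1.73 ± 0.27). Cxcr3, the Cxcl10 receptor, was lower in TAK1-deleted cells at 0 h by 0.59 ± 0.13 and differed in response at 24 h by 0.92 ± 0.18, while Ccr1 and Ccr4 were not among the genes tested. Of the 5 receptors of the TNF ligands 3 were higher in TAK1-deleted cells at 24 h, Tnfrsf1a (1.12 ± 0.16), Tnfrsf1b (0.94 ± 0.12) and Tnfrsf9, the receptor of Tnfsf9 (0.53). Ltbr, the lymphotoxin beta receptor gene, was not called between the genotypes at that time (0.32 ± 0.14, adjusted p = 0.15).

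Across the 10 group means the members' courses fell into a few shapes, given here by Pearson's r as a description, since the groups of a genotype form 1 time course and all arrays share a scale. Ccl3 and Ccl4 correlated with r of 0.95, Lta and Ltb with 0.95, and Tnf and Tnfsf9 with 0.83. Ccl22 ran opposite to Ltb (-0.88) and Lta (-0.85). Among 4578 tested genes whose group means span at least 1, the courses most like Ccl3 were those of Egr2 (0.99), Plk3 (0.99) and Nr4a3 (0.97), and most like Ccl4 were Nfkbid (0.97), Egr2 (0.95) and Nr4a2 (0.95). Ccl22 was most like Mrps33, Snrpd2 and Prkcsh (0.97 to 0.99) and Ltb most like Mylip, Slc38a9 and Enpp4 (0.98 to 0.99). Lta was most like Cyp39a1, Tmem26 and Gpr4 (each 0.98). The best matches of the other members were weaker, with Cd80 (0.91), Nid1 and C5ar1 for Ccl5, Rab20 (0.94), Cd69 and Sytl3 for Cxcl10, Bmt2 (0.91), Usp2 and Rraga for Tnf, and Stip1 (0.93), Fam122a and Bpnt1 for Tnfsf9.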

How the data were processed

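Gene expression was measured on 20 arrays in 10 groups of 2. The deposited log2 values were used as given; the submitters' processing notes name RMA and Expression Console 1.0, and the authors' further steps are not stated. The build behind the probe sets is not given in the sources used here. Of 35556 probe sets 21789 carry 1 gene symbol. Probe sets whose value reached 7.45 (the table's median) on 2 or more arrays were kept, and of several probe sets of a gene the one with the highest mean was used, which left 11968 genes.

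A model of the 10 group means was estimated by limma 3.58.1, run in R 4.3.3 (intensity trend, all 20 arrays, 10 residual degrees of freedom, prior of 5.47) and 23 contrasts were tested two-sided, with Benjamini-Hochberg adjustment over all genes in a contrast. The fit was run on simulated data with 200 changed genes, in which the arrays varied independently. That run did not cover the shared deviation of same-numbered arrays described below. Array medians ran from 7.37 to 7.52, replicates correlated with r of 0.979 to 0.994 across genes, and the median standard error of a difference was 0.161, so the number of arrays limits the precision. Arrays of the same replicate number, taken from the sample labels, deviated together in 45 of 45 pairs of groups (correlation 0.191 to 0.769, median 0.535). The main fit holds no replicate block, so its standard errors, adjusted p and counts leave this pairing out. The fit with the replicate block is given where it changes a call, apart from some steps between successive times. The members and gene lists were chosen with earlier results of these data known. Named genes were the 9 members, up to 3 called genes with the largest change per list and comparison, and the 3 genes most like each member. Other genes named from the lists (the neighbours Ccl6 and Ccl9 and the receptors) were chosen after their values were seen. Alternatives were a replicate block, no filter, a filter at the 60th percentile, the mean of all probe sets, no intensity trend, renewed quantile normalization, median-centred arrays, array weights and each array left out. Promoter sequences and gene neighbours are from RefSeq (GRCm38.p6), with 6 of 9 promoters matched.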

Additional observations from a re-analysis of the deposited data

Results flagged for a closer look

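The change from 0 h to 24 h differed between the genotypes for 3 members by a test of that difference itself (limma, 2 arrays per group, adjusted over all genes). Ccl5 differed by 1.94 ± 0.16 (adjusted p = 9.3e-06), going down in wild type cells (12.12 and 11.98 to 11.51 and 11.41) and up in TAK1-deleted cells (11.11 and 11.09 to 12.43 and 12.49). Ltb differed by 0.79 ± 0.17 (adjusted p = 0.00758), going down in both genotypes and less far in TAK1-deleted cells. Ccl4 differed by 0.82 ± 0.23 (adjusted p = 0.0361), a call that no set of 7 of its 8 arrays kept, with adjusted p of 0.0638 to 0.137.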

How the results depend on the processing

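Of 207 member comparisons 91 were called, 70 of them in all alternatives computed, and 27 of the 116 others were called in at least 1 alternative; 0 reversed. Between the genotypes the count of members called at 0 h was 1, and 2 with the replicate block, renewed quantile normalization or centred arrays; leaving out each array gave 1 to 2. At 1 h it was 1, 4 with the block, 2 with centred arrays and 1 to 2 on leaving out an array. At 3 h it was 1, and 2 with the block or quantile normalization. At 6 h it was 1, 6 with the block (all lower in TAK1-deleted cells), 6 with array weights (Ltb, higher, in place of Ccl22), 4 with quantile normalization or centred arrays and 1 to 2 on leaving out an array. At 24 h it was 4, 5 with the block and fewer on leaving out an array. The response at 6 h had 0 members, and 1 with the block. From 3 to 6 h 4 members were called in each genotype, 1 to 3 on leaving out a wild type array and 2 to 4 on leaving out a TAK1-deleted array. The block gained 26 calls and lost 0. All gains are given in the report or are steps between successive times, and it changed no other call. The cause of these shifts was not tested. The filter at the 60th percentile leaves out Tnfsf9, which was dim in 15 of the 20 arrays.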
